A study of Mus musculus with 10 samples.

Results

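The genes that license replication origins, fire them and build the replication fork were described in embryonic day 15.5 mouse forebrain after exposure to 1 of 2 maternal chow diets. The members were fixed by gene name for their known roles, with earlier results of these data known, and comprised 47 genes. Of these, 46 had a row among the 21225 probe sets of the deposited table, and Pcna, the gene of the sliding clamp, was not analysed here. Powdered chow (Bioserv F3197) was fed to the dams of 5 embryos and pelleted chow (Teklad 2918) to the dams of the other 5, with every embryo taken from its own litter and hybridized to its own array. All 10 embryos were wild-type offspring of C57Bl/6J dams and Ts1Cje sires, a cross that also yields fetuses carrying the Ts1Cje rearrangement, and each dam's diet began when breeding began. The powdered diet is a purified chow without isoflavones, with more carbohydrate and with less of most vitamins and minerals than the pelleted chow.

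Replication begins when the origin recognition complex marks an origin and, with Cdc6 and Cdt1, loads the Mcm2-7 ring onto DNA, a step called licensing. In S phase the Cdc7-Dbf4 kinase and cyclin-dependent kinases convert the loaded ring, together with Cdc45 and the GINS complex, into the working helicase, and DNA polymerase alpha with primase, polymerase epsilon and polymerase delta then copy the strands. In the forebrain of this stage dividing progenitors line the ventricle while newborn neurons leave the cycle, so replication genes are known as markers of the progenitor compartment. Whole forebrain was measured, and fewer or more dividing cells and less or more of these RNAs per cell cannot be told apart.

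Many replication genes are classical targets of E2F transcription factors, and the members' promoters were read for E2F-type letters. RefSeq promoter windows (GRCm38.p6, 250 bases before to 50 after the start) were given for 38 of the 46 members. TTTCCCGC, TTTGGCGC or TTTCGCGC, on either strand and counted also where matches overlap, stood in the windows of 15 of these 38 (39.5%), against 2.76% of 17491 protein-coding genes with a window. The letters stood in 10 of 26 members that were higher on powdered chow (38.5%), in 1 of 2 that were lower and in 4 of 10 that did not pass the test (40%). Members were listed for their replication roles, so their high share is not independent of that choice. A link between the letters and the diet difference was not tested. CCAAT stood in 57.9% of members and 42.3% of protein-coding genes, and TTTGAA, the letters of the cell cycle homology region, in 18.4% and 18.5%. These matches describe the windows and are not shown to be bound sites. Below, 8 stretches are given, all chosen from members with a match. They set members that rose (Mcm3, Mcm6, Cdc6, Orc1, Pola1 and Rfc3) beside 1 that did not pass (Mcm5) and 1 that fell (Mcm7). Capitals mark 1 match to the E2F-type letters in each stretch, and GCGGGAAA, GCGCCAAA and GCGCGAAA are the same letters read on the opposite strand. A further match stands partly or wholly in lower case in Mcm5 (GCGCCAAA, overlapping the capitals) and in Rfc3 (GCGGGAAA).
Mcm3 (minus strand, chr1:20820275-20820304): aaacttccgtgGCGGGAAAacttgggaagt
Mcm6 (minus strand, chr1:128359734-128359763): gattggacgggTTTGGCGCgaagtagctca
Cdc6 (plus strand, chr11:98908002-98908031): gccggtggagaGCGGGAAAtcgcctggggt
Orc1 (plus strand, chr4:108579416-108579445): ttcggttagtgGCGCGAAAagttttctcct
Pola1 (minus strand, chrX:93632275-93632304): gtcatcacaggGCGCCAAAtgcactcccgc
Rfc3 (minus strand, chr5:151651200-151651229): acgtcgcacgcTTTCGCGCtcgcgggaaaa
Mcm5 (plus strand, chr8:75109345-75109374): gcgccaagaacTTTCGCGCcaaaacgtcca
Mcm7 (minus strand, chr5:138172030-138172059): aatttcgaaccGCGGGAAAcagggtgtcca
The letters in capitals lie after the annotated start in Mcm3 and before it in the other 7. Each stretch runs 5′ to 3′ along the strand of its gene. Mcm7, which was lower on powdered chow, carries the same TTTCCCGC letters as Mcm3, which was higher.

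Values are the authors' log2 expression values, in which a difference of 1 is a doubling, and differences are powdered minus pelleted chow from limma with its standard error (SE). A member was counted as higher or lower at an adjusted p under 0.05 over all 21225 probe sets. Values of single arrays are given in the order of animals 87, 88, 108, 111 and 115 on powdered chow and 05, 07, 09, 11 and 15 on pelleted chow. A large part of the whole table differed between the diets, with 21.2% of probe sets higher and 21.8% lower on powdered chow. Neither slides nor scan dates are known from the labels, and animal numbers run from 87 to 115 on powdered chow and from 05 to 15 on pelleted chow, so preparation and diet cannot be told apart. Forebrain markers (mean of the 6 listed genes 9.88 to 10.05 on powdered and 9.71 to 10.02 on pelleted chow) were measured together with 6 hindbrain and spinal cord genes (6.05 to 6.34 on powdered and 6.21 to 6.33 on pelleted chow), with 2 of the forebrain list higher and 1 of the hindbrain list, En1, lower on powdered chow.

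Most replication genes were higher in powdered chow-exposed forebrains. Of the 46 measured members, 32 (69.6%) were higher, against 21.2% of all probe sets, 2 (4.35%) were lower, against 21.8%, and 12 did not pass the test. By this rule 43.1% of all probe sets passed in either direction. The median difference over the members was 0.312, or 1.24-fold, against a median of -0.024 over all probe sets. For 26 members (56.5%) all 5 powdered chow values lay above all 5 pelleted chow values, which held for 16.9% of all probe sets, and for 2 all lay below, which held for 15.7%. At the limits of the study's methods (raw p under 0.001, adjusted p under 0.01 and more than 1.5-fold, 0.58 on the log2 scale), 9 members (19.6%) were higher and 1 was lower, against 4.84% and 3.43% of all probe sets. Here the limits were applied to limma p-values, and with the methods' t-test 8 members were higher and 1 lower. Most changes were small, and 24 of the members that passed the test did not reach those limits. Of the 12 that did not pass, 7 had differences above 0 and 5 below.

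**Figure D1:**
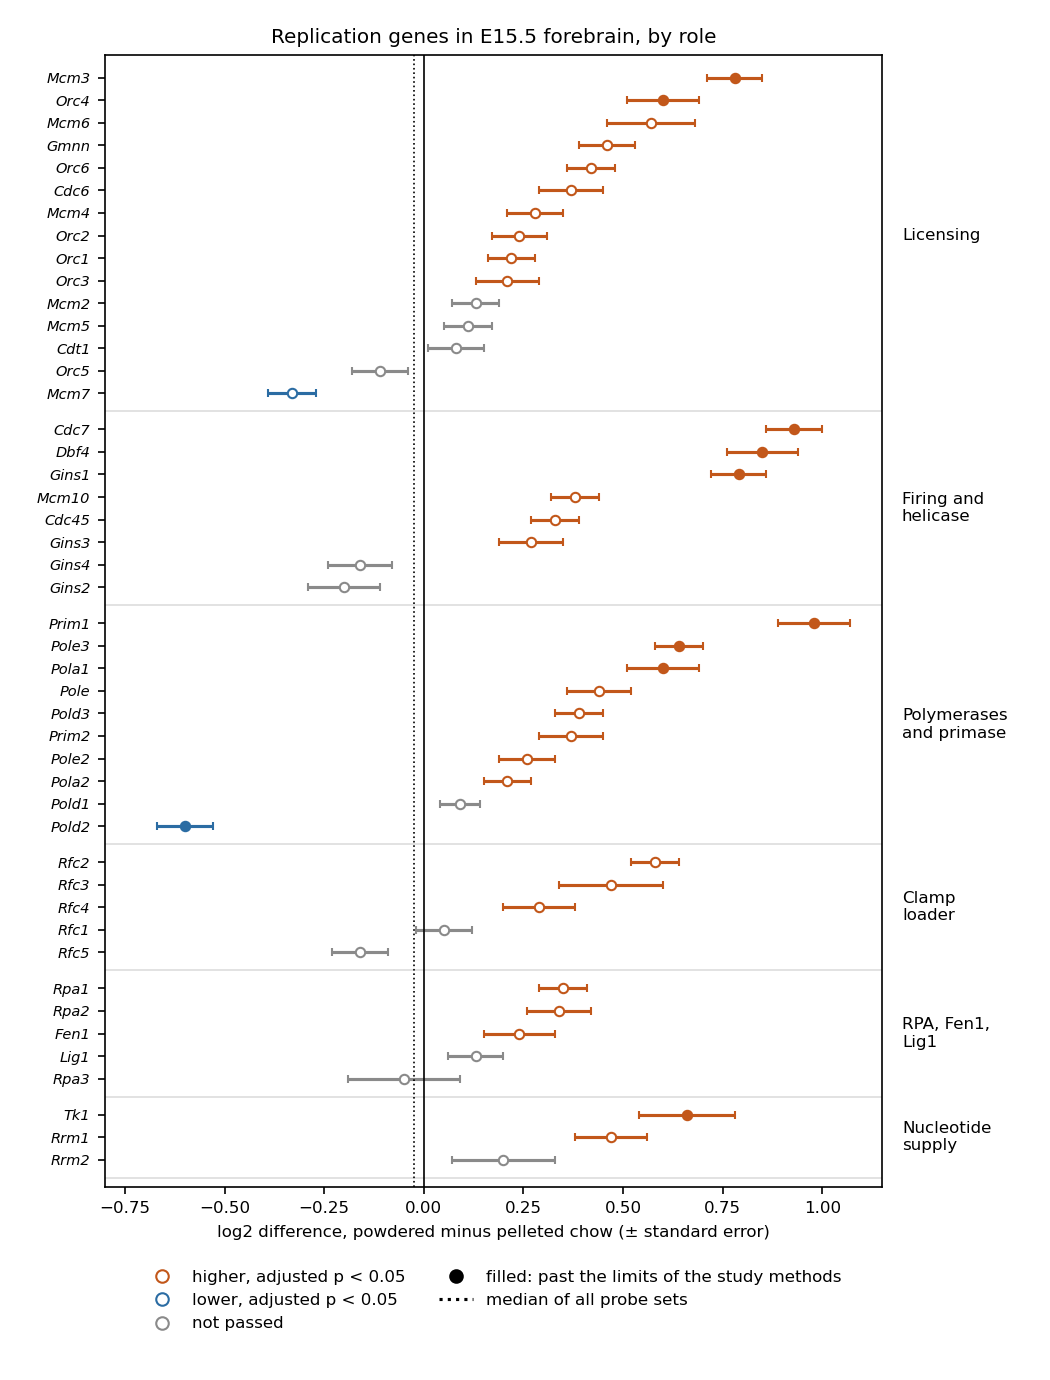
Difference of each of the 46 measured members between diets (points, log2 powdered minus pelleted chow; bars, SE from limma), grouped by role and sorted within each role, with filled points for the 10 members past the limits of the study's methods. Most points lie right of 0, from 0.05 for Rfc1 to 0.98 for Prim1, and the 2 members that passed the test on the left are Mcm7 and Pold2.

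Among the 15 licensing genes, 10 were higher, 1 was lower and 4 did not pass, with a median difference of 0.242. Here and for each role below, counts stand against 21.2% of all probe sets higher and 21.8% lower, and the smaller roles hold few genes. Of the 6 subunits of the origin recognition complex, 5 were higher. Orc4, which belongs to its ATPase core, had the largest difference of them, with 9.36, 9.42, 9.12, 9.69 and 9.39 in powdered chow-exposed forebrains, against 8.80, 8.90, 8.87, 8.65 and 8.76 in pelleted chow-exposed forebrains (0.60, SE 0.09, adjusted p = 1.27e-04). Every powdered chow embryo lay above every pelleted chow embryo. Orc6 differed by 0.42, also without overlap, while Orc2, Orc1 and Orc3 differed by 0.24, 0.22 and 0.21 with overlapping groups. Orc5 differed by -0.11 (SE 0.07, adjusted p = 0.237). The Orc3 call was narrow (adjusted p = 0.0387) and was lost in the methods' t-test (adjusted p = 0.0647) and when any of 7 arrays was left out singly, where its adjusted p was between 0.0518 and 0.094. Orc1 lost its call when pelleted chow animals 05 and 07 were both left out.

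Of the loading factors, Cdc6 passed the test and Cdt1 did not. Cdc6, which recruits the MCM ring, averaged 7.37 ± 0.12 on powdered chow and 6.99 ± 0.15 on pelleted chow (SD, n = 5 each), a difference of 0.37 (SE 0.08, adjusted p = 0.00192). Its partner Cdt1 averaged 8.16 ± 0.12 on powdered chow and 8.08 ± 0.09 on pelleted chow (SD, n = 5 each) and did not pass the test (0.08, SE 0.07, adjusted p = 0.399). Gmnn encodes geminin, the inhibitor of Cdt1 that prevents renewed licensing in the same cycle. Its values were 5.95, 5.80, 5.67, 5.92 and 5.87 on powdered chow, against 5.50, 5.40, 5.28, 5.35 and 5.39 on pelleted chow. The groups did not overlap, with a difference of 0.46 (SE 0.07, adjusted p = 8.42e-05). Gmnn and Orc1 were the only members whose mean over all arrays (5.61 and 5.97) lay under 6.42, the lower quartile of probe set means, and no detection calls were used here to set a background for them.

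The 6 subunits of the MCM ring, which assemble as 1 hexamer, gave each of the 3 outcomes. Mcm3, Mcm4 and Mcm6 were higher, Mcm7 was lower, and Mcm2 and Mcm5 did not pass the test. Mcm3 had 8.44, 8.34, 8.29, 8.24 and 8.36 on powdered chow, against 7.59, 7.71, 7.45, 7.39 and 7.64 on pelleted chow. This was the largest difference of the ring, 0.78 (SE 0.07, adjusted p = 1.56e-06), or 1.72-fold. Mcm6 had 9.08, 9.02, 9.08, 9.11 and 9.09 on powdered chow, against 8.83, 8.69, 8.31, 8.10 and 8.60 on pelleted chow (0.57, SE 0.11, adjusted p = 0.00118). Its powdered chow values spanned 0.09, while animals 09 and 11 on pelleted chow were well below the other 3. Mcm4 had 8.45, 8.48, 8.26, 8.61 and 8.53 on powdered chow, against 8.21, 8.24, 8.04, 8.20 and 8.25 on pelleted chow (0.28, SE 0.07, adjusted p = 0.00606). Its groups were separated by 0.01 only.
Mcm7 went the other way, with 9.40, 9.42, 9.34, 9.37 and 9.43 on powdered chow, against 9.79, 9.83, 9.73, 9.55 and 9.70 on pelleted chow (-0.33, SE 0.06, adjusted p = 5.45e-04). All 5 powdered chow embryos were below all 5 pelleted chow embryos. Mcm2 had 9.09, 9.05, 9.08, 9.08 and 9.07 on powdered chow, against 9.07, 9.03, 8.85, 8.91 and 8.84 on pelleted chow (0.13, SE 0.06, adjusted p = 0.0802). The powdered chow values were nearly equal, and pelleted chow animals 05 and 07 lay among or next to them. Without animal 05, Mcm2 passed the test (adjusted p = 0.0261), as it did without animals 05 and 07 together (adjusted p = 0.00969). Mcm5 had 8.97, 9.01, 8.90, 8.90 and 8.98 on powdered chow, against 8.86, 8.89, 8.83, 8.69 and 8.92 on pelleted chow (0.11, SE 0.06, adjusted p = 0.122), and the groups overlapped at pelleted chow animal 15.

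**Figure D2:**
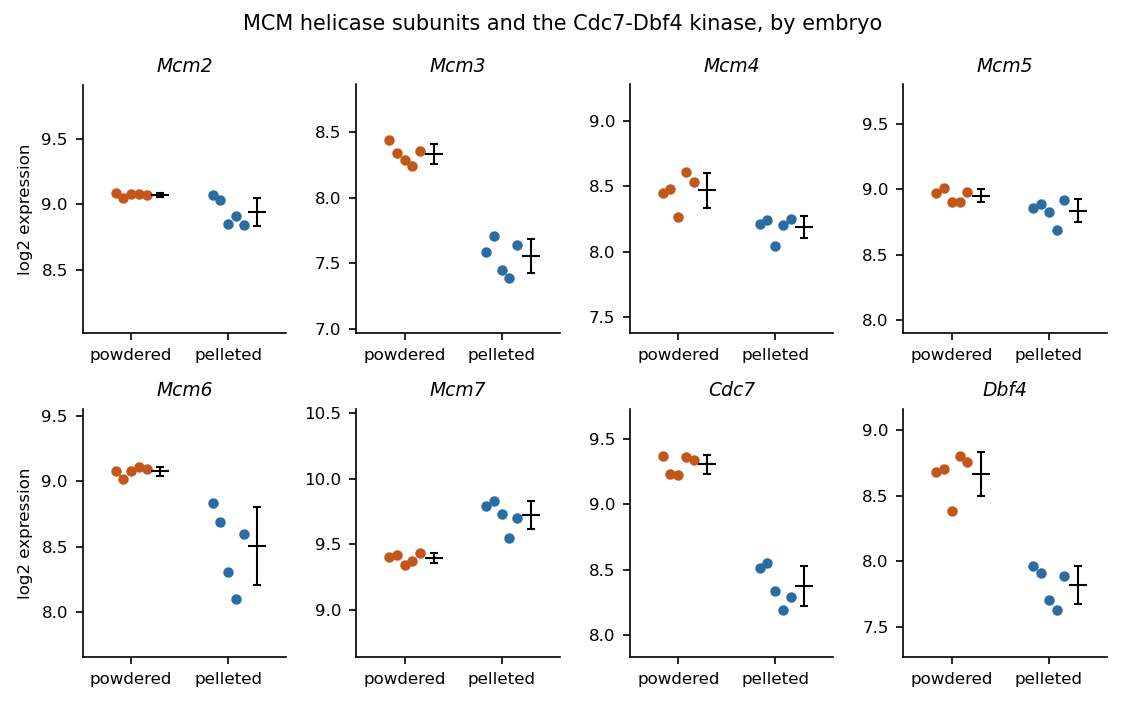
Log2 expression of the Mcm2 to Mcm7 subunits and of both subunits of the origin-firing kinase in each embryo (points; bars, mean ± SD of 5), powdered chow left and pelleted chow right, with axes of equal height in all panels. Cdc7, Dbf4 and Mcm3 do not overlap and differ by 0.78 to 0.93 in group mean, Mcm2 and Mcm5 overlap, and Mcm7 is lower on powdered chow.

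Of the 8 genes that fire origins and activate the helicase, 6 were higher, 0 lower and 2 did not pass, with a median difference of 0.355. Both subunits of the firing kinase were among the largest rises. Cdc7, its catalytic subunit, had 9.37, 9.23, 9.22, 9.36 and 9.34 on powdered chow, against 8.51, 8.55, 8.34, 8.19 and 8.29 on pelleted chow (0.93, SE 0.07, adjusted p = 6.59e-07), or 1.90-fold. Dbf4, the regulatory subunit that switches the kinase on in S phase, averaged 8.66 ± 0.17 on powdered chow and 7.82 ± 0.15 on pelleted chow (SD, n = 5 each; 0.85, SE 0.09). Neither gene overlapped between the diets, and the lowest powdered chow value of Dbf4, 8.38 in animal 108, was still above the highest pelleted chow value, 7.96.
GINS is a complex of 4 subunits, and 2 of its genes passed the test. Gins1 had 8.42, 8.39, 8.18, 8.35 and 8.44 on powdered chow, against 7.67, 7.71, 7.46, 7.50 and 7.48 on pelleted chow (0.79, SE 0.07, adjusted p = 1.59e-06), with no overlap. Gins3 was higher by 0.27 (SE 0.08, adjusted p = 0.0156). Gins2 and Gins4 had differences of -0.20 (SE 0.09, adjusted p = 0.0797) and -0.16 (SE 0.08, adjusted p = 0.115) and did not pass the test. Gins2 passed, as lower, without powdered chow animal 115 (adjusted p = 0.0219), and Gins4 without pelleted chow animal 11 (adjusted p = 0.015). Cdc45, which completes the helicase with GINS, and Mcm10, which helps activate it, were higher by 0.33 and 0.38 (SE 0.06 and 0.06), both without overlap.

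Polymerase and primase genes gave 8 higher, 1 lower and 1 not passed of 10, with a median difference of 0.377. All 4 subunits of the polymerase alpha-primase complex, which starts each new strand with a short primer, were higher. Prim1, the catalytic subunit of primase, had 9.29, 9.27, 9.17, 9.45 and 9.38 on powdered chow, against 8.28, 8.42, 8.39, 8.03 and 8.53 on pelleted chow (0.98, SE 0.09, adjusted p = 1.85e-06). At 1.98-fold this was the largest change of any member, and the lowest powdered chow value stood 0.64 above the highest pelleted chow value. Pola1, the catalytic polymerase subunit, differed by 0.60 (SE 0.09), Prim2 by 0.37 (SE 0.08) and the B subunit gene Pola2 by 0.21 (SE 0.06), none with overlap.
The 3 listed subunits of polymerase epsilon, which copies the leading strand, were also higher. Pole3, its histone-fold subunit, had 9.58, 9.56, 9.49, 9.69 and 9.56 on powdered chow, against 8.99, 8.93, 8.98, 8.82 and 8.97 on pelleted chow (0.64, SE 0.06, adjusted p = 1.59e-06). Again all powdered chow values were above all pelleted chow values. The catalytic subunit gene Pole differed by 0.44 (SE 0.08) and Pole2 by 0.26 (SE 0.07) with an overlap at pelleted chow animal 07.
Polymerase delta, which copies the lagging strand, had 1 of its 3 listed subunits in each outcome. Pold3, an accessory subunit, averaged 9.82 ± 0.08 on powdered chow and 9.43 ± 0.07 on pelleted chow (SD, n = 5 each; 0.39, SE 0.06). Pold1, the catalytic subunit, averaged 8.13 ± 0.02 on powdered chow and 8.04 ± 0.06 on pelleted chow (SD, n = 5 each) and did not pass the test (0.09, SE 0.05, adjusted p = 0.134), although the methods' t-test called it higher (adjusted p = 0.0225). Pold2, the B subunit that bridges the others, had 8.99, 9.03, 8.98, 8.82 and 8.74 on powdered chow, against 9.36, 9.52, 9.52, 9.57 and 9.59 on pelleted chow (-0.60, SE 0.07, adjusted p = 1.53e-05). The groups lay at least 0.33 apart, with every powdered chow embryo lower, and Pold2 was the only lower member past the limits of the study's methods.

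**Figure D3:**
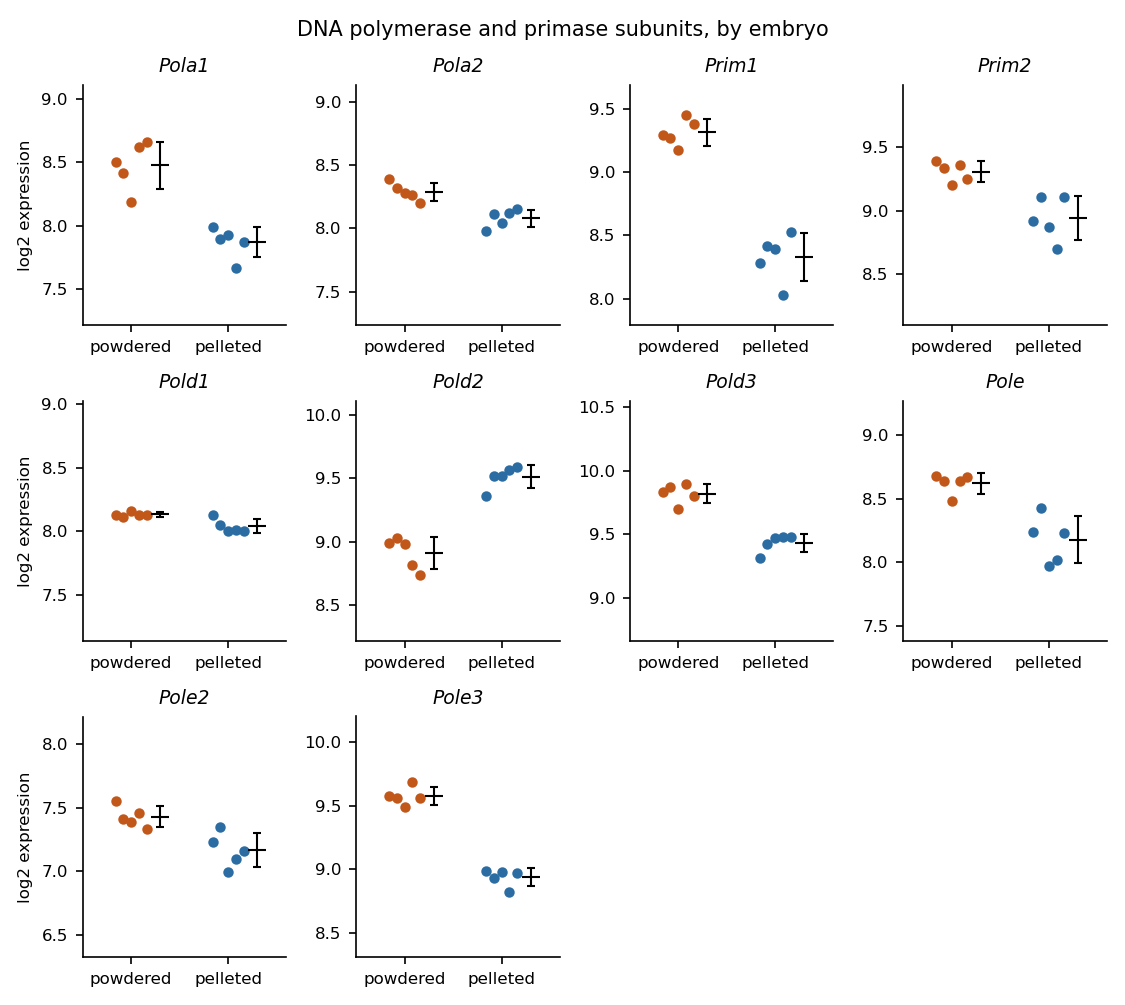
Log2 expression of the 10 polymerase and primase subunit genes in each embryo (points; bars, mean ± SD of 5), powdered chow left and pelleted chow right, with axes of equal height in all panels. Prim1 stands highest above its pelleted chow values (difference 0.98), Pold1 is nearly level (0.09) and Pold2 is lower on powdered chow (-0.60).

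The clamp loader, replication factor C, opens the sliding clamp and places it on primed DNA. Of its 5 genes 3 were higher, 0 lower and 2 did not pass (median difference 0.293). Rfc2 had 9.36, 9.37, 9.38, 9.51 and 9.41 on powdered chow, against 8.69, 8.90, 8.90, 8.73 and 8.89 on pelleted chow (0.58, SE 0.06, adjusted p = 5.99e-06), a clear separation. Rfc3 had 9.05, 9.07, 8.87, 9.14 and 9.05 on powdered chow, against 8.83, 8.80, 8.52, 8.03 and 8.65 on pelleted chow (0.47, SE 0.13, adjusted p = 0.00857). Pelleted chow animal 11 was the lowest by far, and the next lowest value was 8.52. Rfc4 was higher by 0.29 (SE 0.09, adjusted p = 0.0214) with overlap, a call lost in the methods' t-test (adjusted p = 0.0553) and when any of 4 arrays was left out singly (adjusted p up to 0.0588). The large subunit gene Rfc1 differed by 0.05 (SE 0.07) and Rfc5 by -0.16 (SE 0.07), and neither passed (adjusted p = 0.567 and 0.102).

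Replication protein A coats single-stranded DNA at the fork as a trimer, and 2 of its 3 genes were higher. With the Okazaki fragment enzymes, 3 of 5 genes were higher, 0 lower and 2 did not pass (median difference 0.245). Rpa1, the large DNA-binding subunit, had 8.90, 8.94, 8.86, 8.83 and 8.81 on powdered chow, against 8.48, 8.66, 8.50, 8.37 and 8.55 on pelleted chow (0.35, SE 0.06, adjusted p = 3.51e-04). Rpa2 had 8.51, 8.39, 8.37, 8.54 and 8.53 on powdered chow, against 8.31, 8.18, 8.16, 7.88 and 8.11 on pelleted chow (0.34, SE 0.08, adjusted p = 0.00259). Neither overlapped between the diets, whereas Rpa3, the smallest subunit, scattered from 7.45 to 8.08 on powdered chow and from 7.67 to 8.16 on pelleted chow (-0.05, SE 0.14, adjusted p = 0.781). Of the enzymes that finish Okazaki fragments, the flap nuclease gene Fen1 was higher by 0.24 (SE 0.09, adjusted p = 0.039) with overlap, and the DNA ligase gene Lig1 differed by 0.13 (SE 0.07, adjusted p = 0.148). The Fen1 call was lost in the methods' t-test (adjusted p = 0.08), after median centring (adjusted p = 0.0511) and when any of 8 arrays was left out singly (adjusted p up to 0.0955).

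Deoxynucleotides come from ribonucleotide reductase and, by salvage, from thymidine kinase, and 2 of these 3 genes were higher (median difference 0.473). Rrm1, the large subunit of the reductase, had 10.24, 10.28, 9.95, 10.36 and 10.21 on powdered chow, against 9.81, 9.89, 9.70, 9.50 and 9.76 on pelleted chow (0.47, SE 0.09, adjusted p = 6.65e-04). Rrm2, its small S-phase subunit, had 9.46, 9.52, 9.14, 9.36 and 9.37 on powdered chow, against 9.39, 9.55, 9.06, 8.71 and 9.15 on pelleted chow (0.20, SE 0.13, adjusted p = 0.248). Rrm1 separated the diets and Rrm2 did not, with pelleted chow animals 05, 07 and 15 above powdered chow animal 108. Without pelleted chow animals 05 and 07 the Rrm2 difference was 0.40 and passed (adjusted p = 0.0139). Tk1, the cytosolic thymidine kinase, had 7.90, 8.03, 7.81, 8.27 and 8.31 on powdered chow, against 7.64, 7.16, 7.35, 7.69 and 7.20 on pelleted chow (0.66, SE 0.12, adjusted p = 7.31e-04). It separated the diets by 0.12 and had wider spread on pelleted chow (SD 0.24, n = 5) than most members (median SD 0.124).

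Replication genes outside the member list were also mostly higher. Of 50 further replication genes, 32 were higher, 2 lower and 16 did not pass, with a median difference of 0.305. Topoisomerase I (Top1), which relieves torsion ahead of the fork, was higher by 1.13 (SE 0.06, adjusted p = 3.47e-08). Tipin and Clspn, which protect the fork and pass on its checkpoint signal, were higher by 1.10 and 0.95 (SE 0.08 and 0.07), and the exonuclease gene Exo1 by 0.89 (SE 0.07). The lower ones were Rnaseh2a (-0.50, SE 0.07), the catalytic subunit of an enzyme that removes ribonucleotides from DNA, and Pole4 (-0.29, SE 0.06), the histone-fold partner of Pole3. Pole4 averaged 9.40 ± 0.08 on powdered chow and 9.69 ± 0.08 on pelleted chow (SD, n = 5 each), while its partner Pole3 was higher.
Of 28 further genes of nucleotide supply, 11 were higher, 6 lower and 11 did not pass, with a median of 0.117. Over all probe sets 21.2% were higher and 21.8% lower, so the share of lower genes in this list was near that of the whole table. Among the higher ones were Ctps (0.64) and Umps (0.61), which act in the synthesis of cytidine nucleotides and of pyrimidines. The lower ones were Dtymk (-0.46), which phosphorylates thymidylate, Cmpk1 (-0.40), which phosphorylates cytidylate and uridylate, Atic (-0.38), which closes the purine ring, Ctps2 (-0.36), the other CTP synthase gene, and the nucleotide kinase genes Guk1 (-0.27) and Nme2 (-0.21). Their standard errors lay between 0.05 and 0.09.

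Embryos of 1 diet also differed from each other across many members at once. On powdered chow, animal 108 was the lowest of its diet for 29 of 46 members, against 21.3% of all probe sets, and animal 111 was the highest for 19, against 24.6%. On pelleted chow, animal 11 was the lowest for 25 members, against 25.2% of all probe sets, and animals 05 and 07 were the highest for 18 and 15, against 30.7% and 17% of all probe sets. The mean over all members was 8.69, 8.67, 8.55, 8.72 and 8.68 on powdered chow, against 8.42, 8.43, 8.30, 8.23 and 8.39 on pelleted chow. The diets did not overlap in this mean, and its SD was 0.06 on powdered and 0.08 on pelleted chow. For 28 members (60.9%) the SD was larger on pelleted chow, as for 53.9% of all probe sets.

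**Figure D4:**
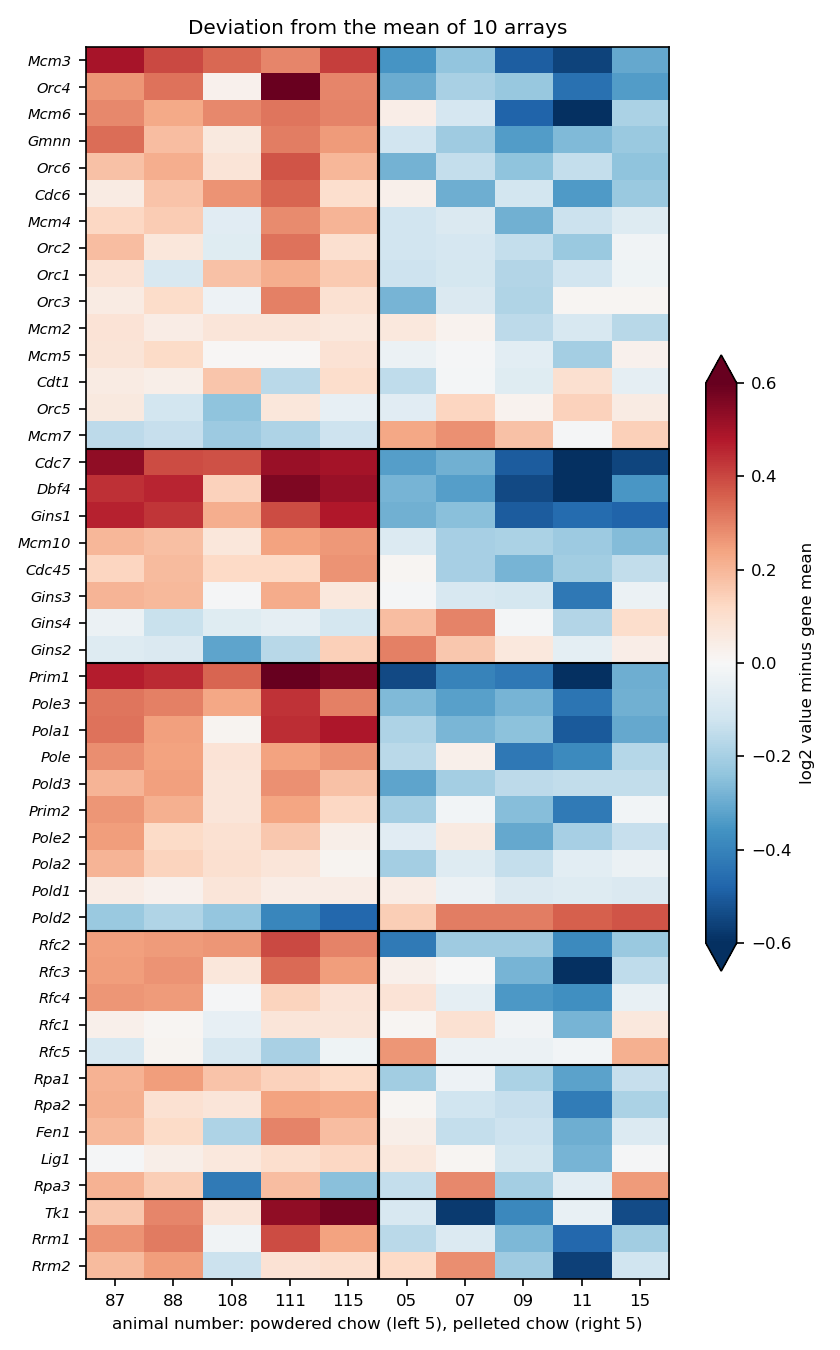
Deviation of each member's log2 value from its mean over the 10 arrays, with members in rows by role (lines separate roles in the order licensing, firing, polymerases, clamp loader, single-strand binding and joining, nucleotide supply) and animals in columns. The 5 powdered chow columns at left are mostly above the gene mean, palest in animal 108, and the 5 pelleted chow columns mostly below it, darkest in animal 11, with Mcm7 and Pold2 reversed.

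Markers of dividing cells and of other cell types were read in the same arrays, and their part in the results was not tested. Their counts stand against 21.2% of all probe sets higher and 21.8% lower. Of 9 measured genes listed as markers of dividing cells, among them Mki67, which is not confined to mitosis, 7 were higher and 1, Cdk1, was lower. Their median difference was 0.586, against 0.312 over the members. Their mean levels were 8.93 to 9.18 on powdered and 8.30 to 8.71 on pelleted chow. Pelleted chow animals 05 and 07 had the highest means of this list in their diet, 8.71 and 8.70. Of 9 radial glia markers, 1 (Pax6) was higher and 4 were lower, with means of 9.71 to 9.87 on powdered and 9.86 to 10.01 on pelleted chow. Of 5 intermediate progenitor markers, Neurog2 and Eomes were higher (0.67 and 0.66) and Btg2 lower (-0.19), with means of 8.67 to 8.77 and 8.32 to 8.61 on powdered and pelleted chow. Of 9 markers of postmitotic neurons, 3 were higher and 1 lower (11.52 to 11.63 on powdered, 11.42 to 11.48 on pelleted chow).
Of 8 measured erythroid markers, 2 were higher, with Hbb-bs at 0.86, and 0 lower, a share near that of all probe sets. Erythroid means were 7.68 to 7.93 on powdered and 7.23 to 7.79 on pelleted chow, where animals 05 and 07 stood at 7.79 and 7.71 and the other 3 at 7.23 to 7.33. Of 5 endothelial markers 3 were higher and 0 lower (9.30 to 9.40 on powdered, 9.09 to 9.17 on pelleted chow), and of 6 microglial markers 2 were higher and 1 lower (7.60 to 7.76 on powdered, 7.52 to 7.78 on pelleted chow). Without animals 05 and 07, 32 members were higher and 2 lower and the median difference was 0.384. Orc1 and Orc3 were then no longer among the higher ones, and Mcm2 and Rrm2 were. Animals 05 and 07 had the highest member means of their diet (8.42 and 8.43), so leaving them out lowers the pelleted chow level.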

How the data were processed

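RNA of 10 forebrains was hybridized to Affymetrix Mouse Gene ST arrays, and the authors deposited log2 expression values after RMA background correction, quantile normalization and summarization, with 1 probe set per Entrez gene. Such summarization tends to understate fold changes, most for dim genes, and no detection call or scanner signal was used here. The 47 members were looked up by gene symbol. Diets were compared with limma (version 3.58.1, R 4.3.3; lmFit and eBayes) over all 21225 probe sets, 5 arrays against 5, with no covariate and Benjamini-Hochberg adjustment. The number of arrays limits the precision, so a member that did not pass the test is not shown to be unchanged. Alternatives were the limits of the study's methods, the methods' t-test, array weights, limma's robust prior with a trend on intensity, quantile, cyclic loess and median normalization of the deposited values, filters on low values, leaving out each array, and leaving out pelleted chow animals 05 and 07. Values were given for every array for the 2 members of lowest p in each role, Mcm2 to Mcm7, Rrm1, Rrm2, Tk1 and every lower member, and for Orc4, which was added after its values were seen. Members and lists were chosen with earlier results of these data known. Symbols come from the RefSeq annotation, joined to the probe sets by Entrez ID, and from the platform annotation where RefSeq gave none. The script was tested on simulated data. Some genes of the further lists are not reported here by name.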

Additional observations from a re-analysis of the deposited data

Results flagged for a closer look

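Within each diet, each of the 46 members was checked for 1 array far from the other 4, using Dixon's ratio of the gap to the range (critical value 0.71). Of 92 groups, 4 held such an array, and chance gives about 5% of groups. In all 4 the array was the low one. For Dbf4, powdered chow animal 108 had 8.38 and the others 8.68 to 8.80 (ratio 0.733). For Pole, the same animal had 8.48 and the others 8.64 to 8.68 (ratio 0.828). For Mcm4, pelleted chow animal 09 had 8.04 and the others 8.20 to 8.25 (ratio 0.747). For Gins3, pelleted chow animal 11 had 7.05 and the others 7.37 to 7.47 (ratio 0.763).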

How the results depend on the processing

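The first count here left out the limits of the study's methods, which 24 of the members that passed the test did not reach. Members removed by a filter on low values were counted over the other alternatives only. Of the 46 members, 35 kept their direction and their side of the adjusted p threshold under every alternative run at that threshold. At the same threshold, the number higher, 32 of 46, was 29 to 34 in the alternatives that kept all 46 members (29 to 32 leaving out 1 array), 30 of 44 without probe sets under the lower quartile and 25 of 38 without those under the median. The number lower was 2 to 3. The limits of the study's methods left 9 higher and 1 lower, and the lower one, Pold2, near the fold limit, gave 0 to 1 over the single arrays left out. The median difference of the firing genes was 0.562 without probe sets under the median, a setting that leaves fewer genes, and that of the clamp loader 0.399 without pelleted chow animals 05 and 07. Leaving out single arrays, the Rfc1 difference lay between -0.01 (without pelleted chow animal 11) and 0.08, and that of Rpa3 between -0.11 and 0.04 (0 or above without 1 of 4 arrays), and neither passed the test. The cause was not tested. No paired analysis was possible, because every embryo came from its own litter and each dam was fed only 1 of the diets. Array signal over background was not given, so how far low values limit Gmnn and Orc1 was not tested.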
